A study of Mus musculus with 13 samples.

Results

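Tight junctions seal the space between neighbouring epithelial or endothelial cells, and 9 of their genes are described here in mouse lungs 21 days after bleomycin or saline. They are the claudins Cldn1, Cldn3, Cldn4, Cldn5, Cldn7 and Cldn18, the membrane protein gene Ocln (occludin) and the scaffold genes Tjp1 (ZO-1) and Cgn (cingulin). The genes were taken by symbol from a table of 54513 gene symbols, all 9 were present, and all 9 were among the 20468 genes with enough counts to be tested. Bleomycin is a DNA-damaging drug that injures the alveoli and is used to model lung fibrosis. All mice were male C57Bl/6, labelled 7 to 8 weeks old, and total RNA came from 10 µm slices of formalin-fixed, paraffin-embedded lung, with 8 ng used for each of 13 libraries. The groups were 5 saline libraries, all of batch 1, 4 bleomycin libraries of batch 1 (replicates 5 to 8) and 4 bleomycin libraries of batch 2 (replicates 1 to 4).

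Claudins are small membrane proteins that span the membrane and pair across cells, and the set of claudins in a cell layer decides how tightly it seals and which ions pass. Occludin lies in the same strands, while ZO-1 and cingulin join them to actin inside the cell. In the lung, Cldn18 is the main claudin of alveolar epithelium, Cldn3, Cldn4 and Cldn7 are made by alveolar and airway epithelium, and Cldn5 is best known as the endothelial claudin. Cldn1 is abundant in stratified epithelia, and ZO-1 is present in both epithelium and endothelium.

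Total counts were 9527580 to 26043735 in saline, 21727502 to 28885129 in batch 1 bleomycin and 6337147 to 12982422 in batch 2 bleomycin. The labels of bleomycin replicate 8 disagree: its title reads control, whereas its treatment and library name read bleomycin. It was kept as bleomycin. Its activated fibroblast markers summed to 22040 CPM, the highest of the 13 libraries, against 1599 to 2011 in saline, and its alveolar type 1 markers to 3105 CPM, against 6487 to 7929. Its leukocyte sum, 2056 CPM, was just above the saline range of 1576 to 2022. Most of that sum was Lyz2, also on the alveolar type 2 list (means 1431 CPM in saline, 1460 in batch 1 bleomycin). The first gene of the leukocyte list, Ptprc, was at 97.0 to 141.9 CPM in saline and 245.6 to 318.8 in batch 1 bleomycin, replicate 8 included. By the test given below, 10 of the 11 leukocyte markers rose in batch 1 and 0 fell, where 17.5% and 13.4% of all tested genes did. Results that depend on it are given without it too. Lung identity was clear in every library: the surfactant gene Sftpc was at 977.5 to 4354 CPM, where CPM (a scaled share of the library total) is the count divided by the TMM-scaled total. Markers of basal and squamous epithelium, cells that line the oesophagus and parts of the airway, varied widely between libraries, from 28.2 to 3000 summed CPM in saline, 26.2 to 793 in batch 1 bleomycin and 67.5 to 1710 in batch 2 (10 genes, 0 of them without counts in any group). The labels do not say that each library came from a separate mouse, so p-values measure the spread between these libraries.

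Of the 9 genes, 1 rose in batch 1 bleomycin against saline (Cldn4), 3 fell (Ocln, Tjp1 and Cgn) and 5 did not pass. Among all tested genes 17.5% rose and 13.4% fell, 30.9% in all, and the 4 of 9 genes that passed are not read as a result about the set. The median log2 change of the 9 genes was -0.31, against 0.03 over all tested genes. A gene passed when its Benjamini-Hochberg adjusted p from edgeR's quasi-likelihood test was under 0.05 over all 20468 genes. In a bulk sample, fewer cells of a type and less RNA per cell cannot be told apart. Against the same 5 saline libraries, batch 2 bleomycin had 1 of the 9 genes higher (again Cldn4) and 0 lower, where 15.7% and 13.2% of all genes passed, 28.9% in all. That comparison differs in batch as well as drug, and these cannot be told apart in it. The counts for batch 1 were 1 higher and 2 lower without bleomycin replicate 8.

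**Figure D1:**
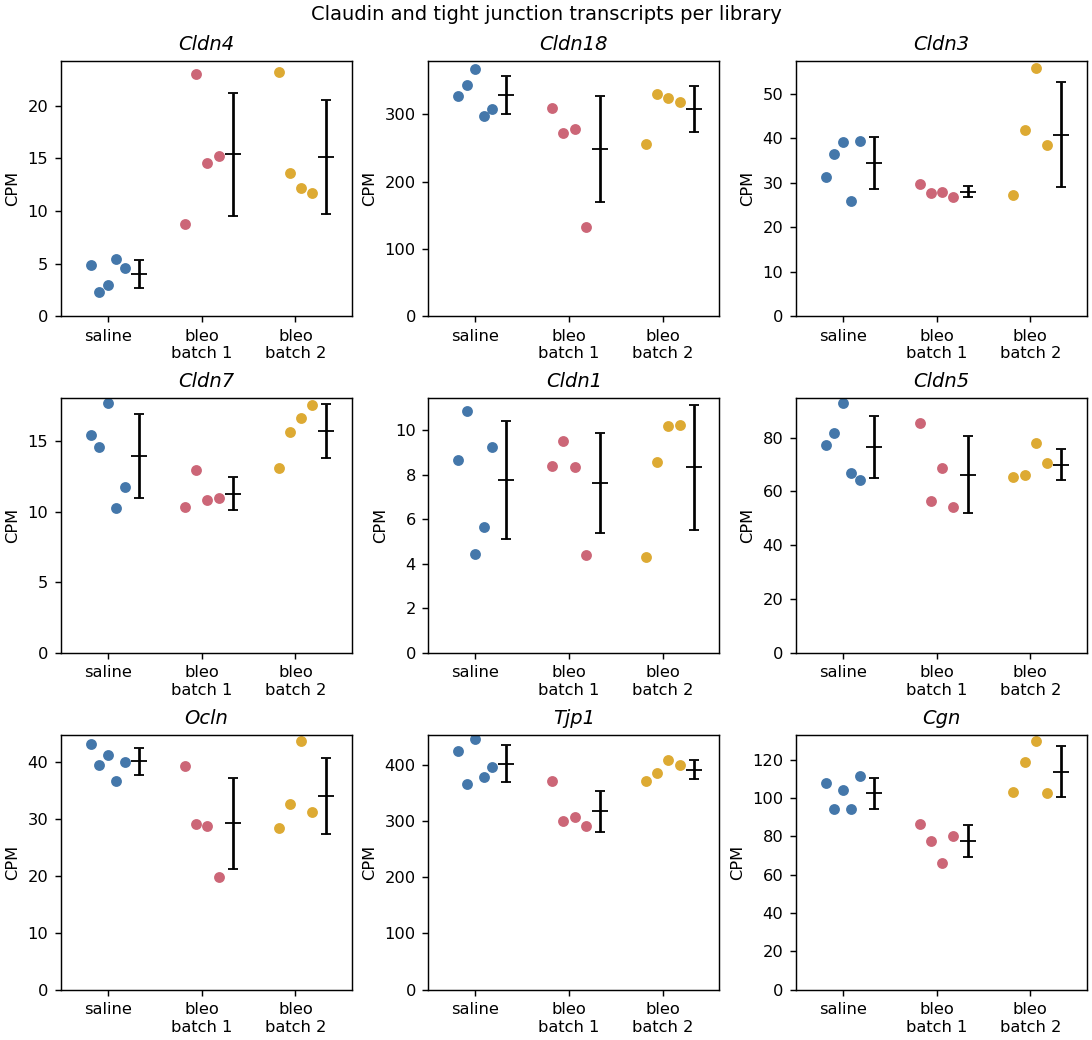
Level of each of the 9 genes in CPM (vertical axes, from 0) in 5 saline, 4 batch 1 bleomycin and 4 batch 2 bleomycin libraries. Points are libraries and bars are mean ± SD; the Cldn4 points of all 8 bleomycin libraries lie above the 5 saline points, and the Cgn points of batch 1 bleomycin lie below saline.

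Cldn4 encodes a sealing claudin of epithelium that is often induced when epithelial layers are injured or stretched. It stood at 4.85, 2.31, 2.91, 5.39 and 4.55 CPM in saline replicates 1 to 5. Batch 1 bleomycin replicates 5 to 8 held 8.72, 23.0, 14.6 and 15.3 CPM, and batch 2 replicates 1 to 4 held 23.2, 13.7, 12.2 and 11.7 CPM. The lowest bleomycin library was above the highest saline library, in both batches. Ranges separated upward from saline for 14% of all tested genes in batch 1 and 15.3% in batch 2, and downward for 11.3% and 12.9%. Cldn4 rose 3.81-fold in batch 1 (log2 change 1.93, SE 0.30, edgeR adjusted p = 0.000223, 4 against 5 libraries). Batch 2 stood 3.73-fold above saline (1.90, SE 0.31, edgeR adjusted p = 0.000343). Between the batches of bleomycin libraries the difference was -0.03 (95% confidence interval -0.69 to 0.63). Without bleomycin replicate 8 the change was 1.90 (edgeR adjusted p = 0.000951), and with that library counted as saline it was 1.38 (edgeR adjusted p = 0.112).

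Cldn3 lies beside Cldn4 in the genome, with 0 genes annotated between them in RefSeq for GRCm38.p6, and it encodes another sealing claudin of epithelium. The promoters of this pair are shown because the neighbours gave different results, and that of Cldn5 because it is the endothelial member. The sequences are RefSeq's for build GRCm38.p6, from 250 bases before to 50 after the annotated start, 5′ to 3′ on the gene's strand, whereas the counts were made on build mm39. Capitals mark matches on either strand to 5 motifs, none of which overlap another there. The GC box bound by Sp1-type factors was searched as GGGCGG. The E-box bound by Snail- and Zeb-type repressors was searched as CAGGTG. The grainyhead-type motif was AACNNGTT. The ETS-type motif was CCGGAAG, and the TATA box was read as TATAAA. The Cldn4 promoter is at chr5:134946885-134947184 (minus strand), that of Cldn3 at chr5:134985964-134986263 (plus strand) and that of Cldn5 at chr16:18776597-18776896 (plus strand).
Cldn4: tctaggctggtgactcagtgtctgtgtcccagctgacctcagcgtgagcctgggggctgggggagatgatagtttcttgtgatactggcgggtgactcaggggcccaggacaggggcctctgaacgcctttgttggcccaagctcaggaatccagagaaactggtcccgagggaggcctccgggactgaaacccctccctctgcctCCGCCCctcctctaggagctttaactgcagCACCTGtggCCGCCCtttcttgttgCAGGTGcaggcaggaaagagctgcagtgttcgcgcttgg
Cldn3: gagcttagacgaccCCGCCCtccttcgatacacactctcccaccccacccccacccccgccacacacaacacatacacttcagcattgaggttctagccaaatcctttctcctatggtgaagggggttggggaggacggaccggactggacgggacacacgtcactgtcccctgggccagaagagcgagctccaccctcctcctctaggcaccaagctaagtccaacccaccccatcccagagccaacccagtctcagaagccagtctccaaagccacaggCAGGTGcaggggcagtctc
Cldn5: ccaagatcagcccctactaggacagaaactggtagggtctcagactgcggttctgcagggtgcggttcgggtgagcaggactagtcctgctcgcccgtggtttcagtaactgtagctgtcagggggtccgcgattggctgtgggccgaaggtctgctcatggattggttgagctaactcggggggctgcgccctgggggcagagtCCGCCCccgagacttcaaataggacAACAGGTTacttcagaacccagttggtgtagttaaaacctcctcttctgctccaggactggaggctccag
The Cldn4 window held 2 GC boxes and 2 E-boxes, and the Cldn3 window held 1 of each. The Cldn5 window held 1 GC box and 1 grainyhead-type match. Of all 32851 promoters in the table, 35.7% held a GC box, 20.2% the E-box, 4.2% the grainyhead-type motif, 8.86% the ETS-type motif and 13.6% the TATA box. A match is a description of these letters and not evidence of a bound factor. The 9 genes had 12 promoters in the table, since Cldn7, Cldn18 and Ocln each have a second start, and both Cldn18 windows held 0 matches to the 5 motifs.

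Cldn3 stood at 31.2, 36.5, 39.2, 26.0 and 39.5 CPM in saline and at 29.7, 27.6, 27.9 and 26.9 in batch 1 bleomycin. Batch 2 held 27.2, 41.8, 55.9 and 38.5 CPM. The batch 1 libraries lay inside the lower part of the saline range, and the change did not pass (log2 -0.30, 95% interval -0.66 to 0.06, edgeR adjusted p = 0.19). The log2 level of Cldn4 relative to Cldn3 was -3.12 ± 0.70 in saline, -0.94 ± 0.62 in batch 1 bleomycin and -1.43 ± 0.84 in batch 2 (mean ± SD, n = 5, 4 and 4). These ratios are values with no test of their own. Cldn7, a claudin found along the sides of epithelial cells, was at 13.9 ± 2.96 CPM in saline, 11.3 ± 1.15 in batch 1 bleomycin and 15.7 ± 1.92 in batch 2. Its batch 1 change did not pass (-0.31, SE 0.16, edgeR adjusted p = 0.171). The 4 batch 2 libraries (13.1 to 17.54 CPM) were just above the 4 of batch 1 (10.36 to 12.96 CPM), a separation seen upward in 2.78% and downward in 4.8% of all genes, but that difference did not pass either (0.48, SE 0.18, edgeR adjusted p = 0.194).

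Cldn18 was the most abundant of the claudins. It stood at 327, 344, 367, 297 and 308 CPM in saline, at 310, 272.5, 277 and 133 in batch 1 bleomycin and at 256.5, 330.4, 324 and 319 in batch 2. Bleomycin replicate 8, at 133 CPM, was the lowest of all 13 libraries, replicates 6 and 7 lay below the saline range too, and replicate 5 lay within it. The change did not pass (log2 -0.41, SE 0.19, 95% interval -0.80 to -0.01, edgeR adjusted p = 0.112). Without replicate 8 it was -0.23 (edgeR adjusted p = 0.0972). In batch 2 the difference from saline was -0.10 (95% interval -0.49 to 0.30). Alveolar markers were read in the same libraries, where 13.4% of all tested genes fell and 17.5% rose in batch 1. Of those for type 2 cells 5 of 15 fell and 0 rose in batch 1 (median log2 change -0.36), and 9 of 16 for type 1 cells fell and 1 rose (median -0.49). The riser, named after its value was seen, was Igfbp2 (log2 change 0.71, SE 0.13, edgeR adjusted p = 0.000966). Among them the type 2 gene Sftpc fell by 1.31 (SE 0.29, edgeR adjusted p = 0.00512), the lowest value of its list, and the type 1 gene Ager fell by 0.56 (SE 0.15, edgeR adjusted p = 0.0104). Summed CPM of 16 alveolar type 1 markers was 6487 to 7929 in saline, 3105 to 5385 in batch 1 bleomycin and 4230 to 5989 in batch 2. For 15 type 2 markers it was 9570 to 12140, 4941 to 9186 and 6557 to 13730. Replicate 8 had the lowest sum of both lists, and the part of cell numbers in its Cldn18 level was not tested. The counts are per gene, so the alternative Cldn18 starts cannot be separated.

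Cldn1 was among the least abundant members, with counts of 26 to 274 per library. It stood at 7.78 ± 2.66 CPM in saline, 7.65 ± 2.24 in batch 1 bleomycin and 8.33 ± 2.79 in batch 2. The groups overlapped almost wholly. Its batch 1 change was -0.01 (95% interval -0.65 to 0.63, edgeR adjusted p = 0.981), and that interval is wide in both directions.

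**Figure D2:**
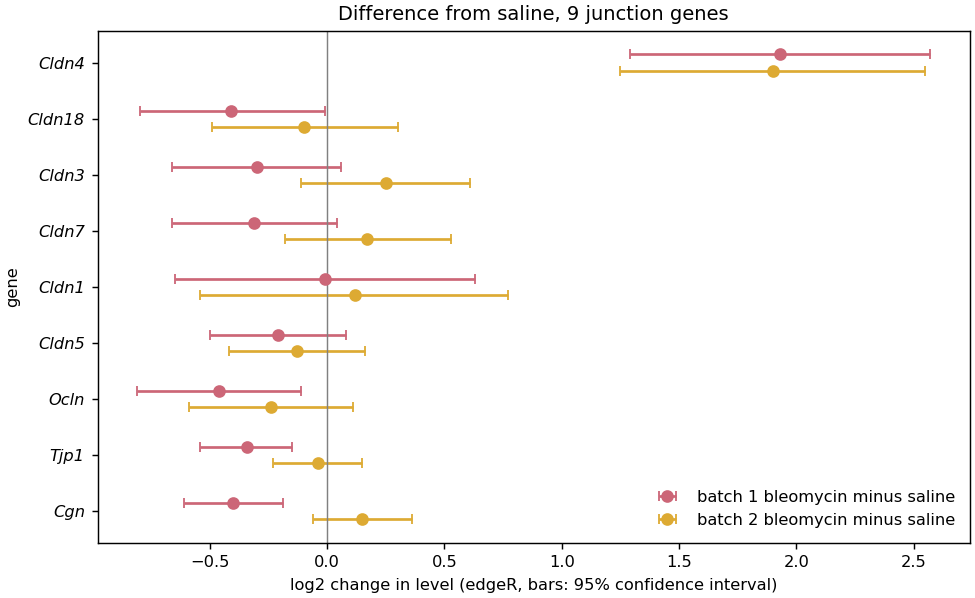
Log2 change from saline (horizontal axis) of each gene in batch 1 bleomycin and in batch 2 bleomycin, with 95% confidence intervals from edgeR. Cldn4 lies near 1.9 in both comparisons, and the other 8 genes lie between -0.46 and 0.25.

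Ocln, the gene for occludin, stood at 43.2, 39.6, 41.3, 36.8 and 40.2 CPM in saline and at 39.3, 29.2, 28.7 and 19.8 in batch 1 bleomycin. Batch 2 held 28.5, 32.7, 43.7 and 31.3 CPM. Of the batch 1 bleomycin libraries, replicate 5 lay within the saline range and the others below it. Ocln fell by 0.46 on the log2 scale (SE 0.16, edgeR adjusted p = 0.0431). The call was narrow: it was lost without bleomycin replicate 2, 4, 6, 7 or 8 or without saline replicate 1, 3 or 5 (edgeR adjusted p 0.0566 to 0.0911). In batch 2 the difference from saline was -0.24 (SE 0.17, edgeR adjusted p = 0.309).

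Tjp1 encodes ZO-1, the scaffold that binds claudin tails. It stood at 424, 366, 446, 379 and 395.5 CPM in saline, at 371, 300.3, 306.5 and 290.2 in batch 1 bleomycin and at 371, 385, 409 and 400 in batch 2. Batch 1 bleomycin replicate 5 overlapped saline and the other batch 1 libraries were lower. Tjp1 fell by 0.34 (SE 0.09, edgeR adjusted p = 0.00993). In batch 2 the difference from saline was -0.04 (95% interval -0.23 to 0.15).

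Cgn encodes cingulin, an adaptor between ZO-1 and the actomyosin ring of epithelial cells. It stood at 108, 94.4, 104, 94.3 and 111.5 CPM in saline, at 86.4, 77.8, 66.3 and 80.3 in batch 1 bleomycin and at 103, 119, 130.1 and 103 in batch 2. The batch 1 bleomycin libraries were below every saline library and below every batch 2 library. Cgn fell by 0.40 in batch 1 (SE 0.10, edgeR adjusted p = 0.00631), while batch 2 stood 0.15 above saline (SE 0.10, edgeR adjusted p = 0.28). Between the bleomycin batches Cgn was 0.55 higher in batch 2 (SE 0.10, edgeR adjusted p = 0.0127), the single member of 9 that passed there, where 0.547% of all genes were higher and 1.13% lower, 1.68% in all. That call was lost without bleomycin replicate 2 (edgeR adjusted p = 0.0571) or 3 (0.0652).

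Levels can be compared between genes only per length of transcript. Per kilobase of annotated exons, saline means were 73.8 ± 6.28 CPM for Cldn18, 54.0 ± 8.22 for Cldn5, 51.5 ± 4.17 for Tjp1 and 27.4 ± 4.61 for Cldn3 (SD, n = 5). Below these came Cgn at 17.0 ± 1.31, Ocln at 9.52 ± 0.563, Cldn7 at 7.16 ± 1.52, Cldn4 at 2.20 ± 0.728 and Cldn1 at 1.61 ± 0.548. The neighbours Cldn5 and Tjp1, Ocln and Cldn7, and Cldn4 and Cldn1 overlapped between libraries, and the other neighbours did not. In batch 1 bleomycin Cldn4 reached 8.48 ± 3.23 CPM per kilobase, which overlapped Ocln (6.93 ± 1.89) and Cldn7 (5.80 ± 0.589). Summed over the 33 claudins with a known length, Cldn18 made up 40.3% ± 0.417 of claudin level in saline, 35.8% ± 6.61 in batch 1 bleomycin and 38.5% ± 2.06 in batch 2. The share of Cldn4 was 1.23% ± 0.494, 5.78% ± 2.41 and 4.84% ± 2.35.

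Cldn5, the endothelial member, stood at 77.1, 81.8, 92.8, 66.7 and 64.2 CPM in saline, at 85.4, 56.4, 68.8 and 54.1 in batch 1 bleomycin and at 65.3, 66.0, 78.1 and 70.5 in batch 2. All 3 groups overlapped. The change did not pass in batch 1 (log2 -0.21, 95% interval -0.50 to 0.08, edgeR adjusted p = 0.261) or in batch 2 (-0.13, 95% interval -0.42 to 0.16). Without bleomycin replicate 5, which held the highest batch 1 level, it was -0.36 (edgeR adjusted p = 0.0407). Heart muscle markers, read because cardiac muscle also makes this claudin, were highest in that library (11340 summed CPM over 10 genes, against 239.6 to 9385 in the others), and their part in the Cldn5 level was not tested. Relative to the endothelial adhesion gene Pecam1, log2 Cldn5 was -2.31 ± 0.10 in saline, -2.25 ± 0.24 in batch 1 bleomycin and -2.25 ± 0.06 in batch 2. Relative to Cdh5 (VE-cadherin) it was -2.58 ± 0.12, -2.64 ± 0.16 and -2.59 ± 0.12. The endothelial marker list had 8 of 18 genes lower and 1 higher in batch 1, where 13.4% and 17.5% of all tested genes were. In batch 2 against saline it had 8 lower and 0 higher, where 13.2% and 15.7% of all genes passed. Its summed CPM was 4817 to 5756 in saline, 3315 to 4150 in batch 1 bleomycin and 3388 to 3889 in batch 2. Pecam1 (means 377.6, 310.9 and 333.6 CPM) and Cdh5 (455.5, 407.2 and 421.1) belong to this list. Its most abundant genes, Ptprb (1171, 684.7 and 692.9) and Calcrl (1029, 667.2 and 646.9), fell more. The ratios of Cldn5 to Pecam1 and Cdh5 thus do not stand for the whole list, and no ratio to its sum was taken.

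The epithelial and endothelial claudins were compared through the log2 ratio of Cldn18 to Cldn5 in each library. It was 2.08, 2.07, 1.98, 2.15 and 2.26 in saline, 1.86, 2.27, 2.01 and 1.30 in batch 1 bleomycin and 1.97, 2.32, 2.05 and 2.18 in batch 2. Replicate 8 was low and the other bleomycin libraries lay close to saline. The batch 1 difference was -0.25, which did not pass an exact two-sided permutation test over 126 splits (p = 0.222, the smallest possible being 0.00794). It was -0.06 without bleomycin replicate 8 (exact permutation p = 0.589) and -0.39 without replicate 6 (0.0357). The other epithelial members gave ratios to Cldn5 that differed from saline in batch 1 by 0.21 for Cldn1, -0.06 for Cldn3, -0.06 for Cldn7, -0.28 for Ocln and -0.18 for Cgn, as values with no test. For Cldn4 the ratio differed by 2.12 in batch 1 and 2.02 in batch 2.

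**Figure D3:**
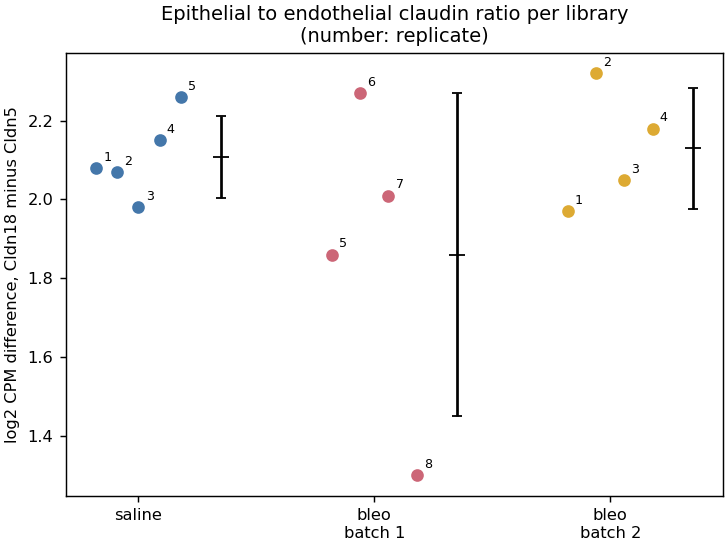
Log2 CPM difference between Cldn18 and Cldn5 (vertical axis) in each library of the 3 groups, with mean ± SD as bars and replicate numbers beside the points. Bleomycin replicate 8, at 1.30, lies below the other 12 libraries, which span 1.86 to 2.32.

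Epithelial content was read from 20 pan-epithelial markers, of which 7 fell and 2 rose in batch 1, where 13.4% and 17.5% of all tested genes did. In batch 2 against saline 7 of these markers were higher and 2 lower, where 15.7% and 13.2% of all genes passed. Their summed CPM was 1129 to 1304 in saline, 1119 to 1145 in batch 1 bleomycin and 1293 to 1669 in batch 2. The adhesion gene Epcam did not pass in batch 1 (0.08, SE 0.12, edgeR adjusted p = 0.665) and was 0.60 above saline in batch 2 (SE 0.12, edgeR adjusted p = 0.00152). Cdh1 (E-cadherin) fell by 0.33 in batch 1 (SE 0.11, edgeR adjusted p = 0.0337). Relative to Epcam, log2 Cldn4 was -2.94 ± 0.58 in saline, -1.11 ± 0.57 in batch 1 bleomycin and -1.64 ± 0.61 in batch 2. Relative to the keratin gene Krt8 of the same list, it was -3.81 ± 0.52, -2.65 ± 0.65 and -3.23 ± 0.36. In that ratio saline (-4.44 to -3.08) overlapped batch 1 (-3.17 to -1.75) and batch 2 (-3.55 to -2.72). Krt8 itself stood at 55.1 ± 6.24 CPM in saline, 94.2 ± 24.7 in batch 1 bleomycin and 138 ± 14.4 in batch 2. Relative to Cdh1, Cgn was at -1.46 ± 0.11, -1.53 ± 0.24 and -1.29 ± 0.14, and Tjp1 at 0.51 ± 0.09, 0.49 ± 0.14 and 0.50 ± 0.18. Batch 1 bleomycin and saline overlapped in both of these ratios. Relative to Epcam, Cgn was at 1.76 ± 0.12 in saline, 1.29 ± 0.39 in batch 1 bleomycin and 1.31 ± 0.13 in batch 2, and the batch 1 libraries (0.74 to 1.59) lay below saline (1.62 to 1.91). Tjp1 relative to Epcam was at 3.73 ± 0.09, 3.32 ± 0.31 and 3.10 ± 0.10. For Cgn and Tjp1 the references Epcam and Cdh1 thus gave different pictures, and none of these ratios has a test. Markers of airway club and ciliated cells, another source of Cldn3 and Cldn7, had 11 of 12 genes lower in batch 1 and 9 in batch 2. Of all tested genes 13.4% and 13.2% were lower. The sums were 7843 to 14060 CPM in saline, 2773 to 4018 in batch 1 bleomycin and 2830 to 7440 in batch 2. In batch 2 Cldn3 and Cldn7 stood 0.25 and 0.17 above saline, and neither passed. The part of airway cells in their levels was not tested.

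Squamous epithelium also makes Cldn4, so its markers were set beside Cldn4 in each library. Of the 10 markers 1 rose and 0 fell in batch 1, where 17.5% and 13.4% of all tested genes did. Their median log2 change was -2.02 (lowest -2.95, highest 1.66), against 0.03 over all tested genes. The median sum was 1346 CPM in saline, 182.7 in batch 1 bleomycin and 93.2 in batch 2, with the wide ranges given above. The calls thus do not show that squamous content was unchanged. Krt4 and Krt13 had the highest saline means of the list (831 and 509 CPM), so the sum mostly follows them where they are high. Within saline the lowest Cldn4 level (2.31 CPM, replicate 2) came with the lowest squamous sum (28.2 CPM) and the highest (5.39 CPM, replicate 4) with the highest sum (3000 CPM). Bleomycin replicate 5 had a squamous sum as low as that saline library (26.2 CPM) and a Cldn4 level of 8.72 CPM. Bleomycin replicate 1, at 67.5 CPM of squamous markers, had the highest Cldn4 level, 23.2 CPM. Activated fibroblast markers summed to 21910 CPM in that library, 8712 to 11120 in the other batch 2 libraries and 1599 to 2011 in saline. In batch 1 bleomycin replicates 5 to 8 the sums were 6115, 17500, 12520 and 22040 CPM. Replicate 5 was lowest in both measures, but replicate 8, with the highest sum, had less Cldn4 than replicate 6. In batch 2 the lowest sum (replicate 3) did not come with the lowest Cldn4 level (replicate 4). The parts of squamous epithelium and of fibrosis extent in the Cldn4 level were not tested.

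**Figure D4:**
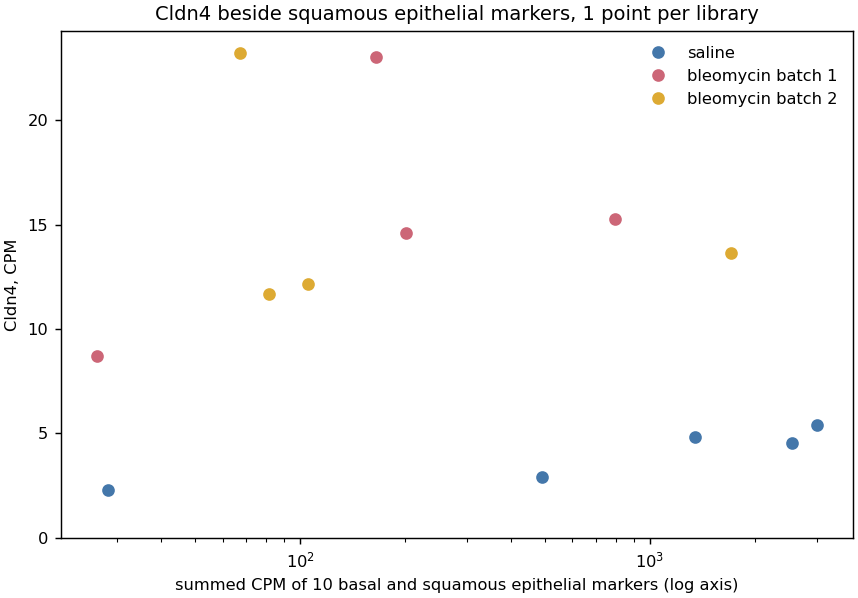
Cldn4 in CPM (vertical axis, from 0) against the summed CPM of 10 basal and squamous epithelial markers (log axis), 1 point per library and coloured by group. Bleomycin libraries lie above saline libraries at low and at high marker sums.

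Among libraries of the same group, some members varied together. After centring log2 CPM within the 3 groups, Pearson's r over 13 libraries was 0.82 for Cldn18 with Ocln and 0.78 for Cldn5 with Tjp1. Cldn4 had a negative r with each of the other 8 members, from -0.75 with Cldn5 to -0.20 with Cgn. These values describe the libraries, which share their scaling and section content. Among the 10548 other genes that averaged 10 CPM or more, Mal2 (0.99), Elovl5 (0.98) and Mob1b (0.97) varied most like Cldn18. Sema3e (0.92), Epas1 (0.91) and Rassf3 (0.90) were nearest to Cldn5, Ctnnbip1 (0.95), Relb (0.91) and Grb10 (0.91) to Cldn4, and Drc3 (0.96), Dnah9 (0.94) and Wfdc2 (0.94) to Cldn3. For Ocln they were Pde8b (0.97), Dyrk2 (0.96) and Tspan2 (0.95), and for Tjp1 Matn4, Ptprb (both 0.95) and Sptbn1 (0.94). The remaining members were nearest to Hdgfl3 (Cldn1, 0.91), Lcn2 (Cldn7, 0.89) and Abcc3 (Cgn, 0.87).

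Another 73 junction genes were read as 3 lists, of which 53 were tested: 5 rose, 15 fell and 33 did not pass in batch 1, with a median log2 change of -0.24. Over all tested genes 17.5% rose and 13.4% fell, and the median was 0.03. Without bleomycin replicate 8, 4 of the list rose and 18 fell, beside 2863 and 2640 of 20694 genes in all. In batch 2 against saline 8 of the list were higher and 9 lower, where 15.7% and 13.2% of all genes passed. Of 10 other claudins tested, 1 rose and 2 fell. Cldn2, which forms pores for cations and water in leaky epithelia, rose from 0.863 ± 0.134 CPM to 4.69 ± 2.62 in batch 1 (log2 change 2.43, SE 0.38, edgeR adjusted p = 0.000195) and stood at 2.19 ± 0.604 in batch 2. Every bleomycin library was above every saline library, at counts that remained low. Cldn10 fell by 1.12 (SE 0.27, edgeR adjusted p = 0.00508), and Cldn12 by 0.47 (SE 0.13, edgeR adjusted p = 0.0137).

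In the list of other membrane proteins 2 of 16 rose and 1 fell. Ildr2, an angulin of the family that marks corners where 3 cells meet, went from 14.2 ± 2.10 to 72.7 ± 20.3 CPM (log2 change 2.35, SE 0.25, edgeR adjusted p = 2.2e-05) and stood at 66.0 ± 24.8 in batch 2. Clmp, an adhesion molecule related to the coxsackievirus receptor, rose by 1.44 (SE 0.19, edgeR adjusted p = 5.8e-05). Crb1, a polarity protein, fell by 1.44 (SE 0.49, edgeR adjusted p = 0.0343) at levels near 1 CPM. Marveld2 (tricellulin), Jam2, Jam3 and F11r (JAM-A) did not pass, with log2 changes of -0.09, 0.24, -0.13 and -0.33.

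In the list of scaffold and polarity proteins 12 of 27 fell and 2 rose, with a median of -0.25. The 4 fallen genes with the lowest p are described here. Pals1, of the Crumbs complex, went from 141.5 ± 6.67 to 69.1 ± 14.6 CPM (log2 change -1.03, SE 0.12, edgeR adjusted p = 1.41e-05) and stood at 78.3 ± 7.75 in batch 2. The atypical kinase C gene Prkcz fell by 0.88 (SE 0.12), its partner Pard6b by 0.82 (SE 0.12) and the scaffold Pard3 by 0.61 (SE 0.10). In batch 2 Pals1, Pard6b and Pard3 were also lower than saline (-0.85, -0.60 and -0.36, edgeR adjusted p = 8.71e-05, 0.00202 and 0.0175). Prkcz was not (-0.28, edgeR adjusted p = 0.096), and it was 0.60 higher in batch 2 than in batch 1 bleomycin (edgeR adjusted p = 0.0203). Micall2 and Rab13, which return occludin to the membrane from endosomes, rose by 1.05 (SE 0.22) and 0.75 (SE 0.23). Rab13 stood at 8.059, 7.105, 8.957 and 15.49 CPM in batch 1 bleomycin replicates 5 to 8, against 4.11 to 7.401 in saline. Its replicate 6 thus lay within the saline range, and the highest level was that of replicate 8, whose labels disagree. In batch 2 Micall2 and Rab13 stood 0.95 and 0.88 above saline (edgeR adjusted p = 0.00597 and 0.0113). The scaffold gene Tjp3 did not pass in batch 1 (0.06, edgeR adjusted p = 0.864) and stood 0.70 above saline in batch 2 (edgeR adjusted p = 0.0327). Cgnl1, the paralogue of cingulin, did not pass in batch 1 (-0.25, edgeR adjusted p = 0.0947) and, like Cgn, was higher in batch 2 than in batch 1 bleomycin (0.49, edgeR adjusted p = 0.0415). Cgnl1 and Prkcz were the 2 of 53 genes called between bleomycin batches, and that count ran from 0 to 6 with single libraries left out. Of all tested genes 0.547% were higher and 1.13% lower in that comparison, 1.68% in all.

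**Figure D5:**
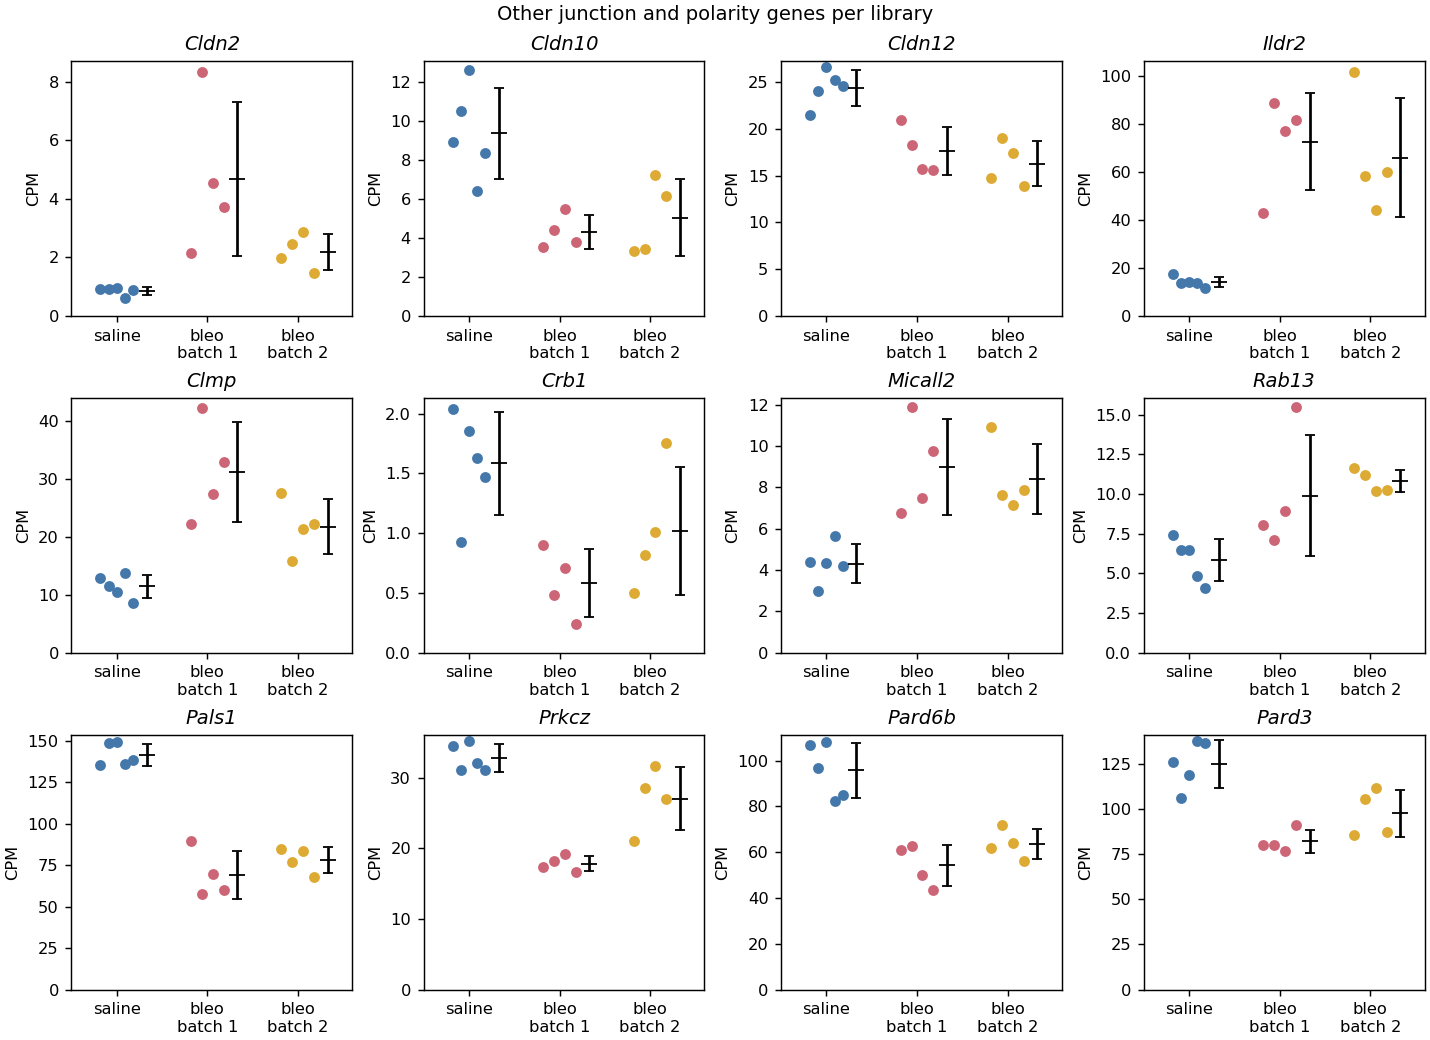
Levels in CPM (vertical axes, from 0) of the 12 called junction genes with the lowest p in their list and direction, in 5 saline, 4 batch 1 and 4 batch 2 bleomycin libraries. Points are libraries and bars mean ± SD; Ildr2 and Cldn2 are above saline in all 8 bleomycin libraries, and Pals1 and Pard6b are below it in all 8.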

How the data were processed

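The authors deposited whole-number counts per gene symbol. Per the submitters' processing notes, cutadapt 4.4, STAR 2.7.10b, featureCounts 2.0.3 and DESeq2 1.42.1 were used on build mm39; for the strand setting, duplicate handling and annotation the sources used here give nothing, so antisense reads cannot be told apart. Of counts between 1 and 10, 78.4% to 86.1% per library were even; how read pairs were counted was not tested. A second deposited table holds a normalized signal, counts divided by a size factor of 0.394 to 1.94 per library; 100% of its values gave whole reads within 0.05, and edgeR called 6319 genes on those reads. Over the 38 pairs of libraries with the same treatment label the chi-square divided by its degrees of freedom was 10.1 to 267, far above sampling noise; pairs across treatments were not compared.

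Genes kept by filterByExpr were TMM-scaled and tested in edgeR 4.0.16 (R 4.3.3, robust quasi-likelihood) over 3 groups, with 6319 of 20468 called for batch 1, 5911 for batch 2 against saline and 343 between bleomycin batches. Log2 ratios used a prior count of 2. Exon lengths came from GENCODE M21, matched for 50674 of 54513 symbols. The batch 1 test was also run on simulated counts of 20468 genes: at 1.5-fold it found 16.4% of 67 altered genes, at 2-fold 52.2% of 67 and at 4-fold 75.8% of 66, and 3 calls were false. Far fewer genes were altered there than the 6319 called in the data, so these rates need not hold for the data.

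Members, lists and tests were chosen with earlier results of these data known. Named genes were the 9 members, up to 4 called genes per junction list and direction by lowest p, 13 reference genes (1 of them not reported here) and the 3 genes most like each member. Alternatives were other scaling, filters, DESeq2 1.42.0, limma 3.58.1 (voom, and log2 of the normalized table plus 1), halved counts, protein-coding genes, left-out libraries, a replicate block and other handling of batch and replicate 8. The recovered reads were added after seeing the data.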

Additional observations from a re-analysis of the deposited data

Results flagged for a closer look

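In batch 2 bleomycin, replicate 1 stood apart from the other libraries of its group for 2 genes. Its Cldn4 level was 23.22 CPM, against 11.7 to 13.65 in the others, and its Cldn18 level was 256.5 CPM, against 318.7 to 330.4. It is the library with the lowest total count (6337147) and the highest activated fibroblast sum of its batch (21910 CPM). Of 30 groups of values examined this way, chance gives about 1 in 20. Cgn differed between the bleomycin batches: its log2 level was 0.55 higher in batch 2 than in batch 1 (edgeR adjusted p = 0.0127).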

How the results depend on the processing

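Cldn4 stayed higher in batch 1 bleomycin in 26 of 27 alternatives (log2 change 1.38 to 2.13); the exception counted bleomycin replicate 8 as saline (1.38, adjusted p = 0.112). That setting left 645 calls in place of 6319, 0 members higher and 0 lower, and 0 other junction genes higher and 2 lower; batch 2 against saline then had 945 calls. Without a batch term, and under the replicate block (log2 change of Ocln -0.21, Tjp1 -0.05), 0 members were lower. Replicate numbers do not pair the libraries: correlations of same-numbered deviations were -0.64 to -0.07, and 0 of 5 saline libraries were closest to their own number. The block, which sets mainly batch 2 bleomycin against saline, also gave positive values for Cldn1 (0.13), Cldn3 (0.13), Cldn7 (0.07) and Cgn (0.07). Cldn1 in batch 1 changed sign with no filter (0.02), limma-voom (0.11), no batch term (0.05), replicate 8 as saline (0.29) and with single libraries left out (-0.17 to 0.15). With replicate 8 as saline the batch difference was -0.07 for Cldn1 and -0.01 for Cldn5, Cgn lost its call there (0.56, adjusted p = 0.0546), and batch 2 against saline gave 0.05 for Cldn18 and 0.03 for Tjp1. The batch difference of Cldn4 was 0.02 on the normalized table. With single libraries left out, batch differences were -0.07 to 0.33 for Cldn1, -0.31 to 0.23 for Cldn4 and -0.01 to 0.23 for Cldn5, and batch 2 against saline gave -0.04 to 0.33 for Cldn1. Calls between bleomycin batches were 343, but 737 by DESeq2, 102 by limma-voom, 79 with protein-coding genes only and 148 to 1093 with a library left out. The batch 1 difference from saline in the log2 ratio of Cldn18 to Cldn5 ranged from -0.39 to -0.06 over left-out libraries. The share of rises among batch 1 calls was 56.7%, 49.4% by DESeq2 and 51.1% with RLE factors. The cause of these differences was not tested. Depth limits Cldn1 and Cldn4 most among the members; library totals ranged from 6337147 to 28885129.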

Other observations

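Cldn17, a claudin outside the 9 genes, was uneven among saline libraries, at 0 to 8.53 CPM. Bleomycin libraries held 0 to 1.22 CPM of it, and the change did not pass (edgeR adjusted p = 0.109). This gene was picked after its values were seen.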
